A study of Homo sapiens with 10 samples.

Results

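The baseline small RNA profile of HEK-293 cells was read from the 2 arrays, out of 10 in the series, whose labels name cells transfected with a scramble siRNA. HEK-293 is a line grown from human embryonic kidney cells and carries adenovirus DNA. The scramble siRNA, a control that is given no target in the labels, was delivered with the lipid reagent RNAiMax at a final concentration of 10 nM, and the time after transfection is not given in the sources used here. Total RNA was labelled with biotin and hybridised to Affymetrix miRNA 2.0 arrays, 1 array per sample, with probe sets for mature miRNAs and hairpin precursors of many species and for human small nucleolar RNAs (snoRNAs). The arrays are called biological replicates, but nothing says whether they came from separate cultures, so every p-value measures only the spread between these 2 arrays, which may be technical. No untransfected cells were analysed here, so the profile is that of cells that had taken up a siRNA, and fewer cells carrying an RNA cannot be told apart from less of it per cell. The other 8 arrays, of cells given siRNAs against LINC00324 or LOC400043, enter only 1 alternative calculation of the spread.

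A miRNA is cut from a hairpin in its primary transcript, first by Drosha in the nucleus and then by Dicer in the cytoplasm, which leaves a duplex of a 5p and a 3p arm. One arm is usually kept by an Argonaute protein and pairs with messenger RNAs through its seed, the stretch near its 5′ end, while the passenger arm is mostly lost. Hairpins that lie close together on a strand are often cut from 1 transcript. The C/D box snoRNAs guide ribose methylation of ribosomal RNA, the H/ACA box snoRNAs guide its pseudouridylation, and most of both kinds are spliced out of introns of host genes.

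The mature miRNAs of highest signal are shown first because they carry the profile, with the seed (bases 2 to 8) in capitals. They are RefSeq sequences with positions in GRCh38.p14, and each is identical to the sequence in the authors' tables. The first 6 share the seed AAAGUGC, miR-18a-5p has AAGGUGC, and all 7 come from the miR-17-92 cluster and its 2 relatives.
miR-17-5p (chr13:91350618-91350640, plus strand): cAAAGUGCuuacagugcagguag
miR-20a-5p (chr13:91351072-91351094, plus strand): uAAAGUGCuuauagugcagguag
miR-106a-5p (chrX:134170244-134170266, minus strand): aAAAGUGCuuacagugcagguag
miR-93-5p (chr7:100093815-100093837, minus strand): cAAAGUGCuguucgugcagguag
miR-106b-5p (chr7:100094043-100094063, minus strand): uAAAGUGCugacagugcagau
miR-20b-5p (chrX:134169850-134169872, minus strand): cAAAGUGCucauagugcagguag
miR-18a-5p (chr13:91350756-91350778, plus strand): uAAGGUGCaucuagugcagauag
The second set holds other abundant miRNAs of intermediate GC content, chosen as pairs that share a seed. It includes some outside the 25 highest and leaves out miR-191-5p.
miR-92a-3p (chr13:91351361-91351382, plus strand and chrX:134169544-134169565, minus strand): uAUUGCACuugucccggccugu
miR-25-3p (chr7:100093571-100093592, minus strand): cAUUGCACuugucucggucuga
miR-16-5p (chr3:160404754-160404775, plus strand and chr13:50049027-50049048, minus strand): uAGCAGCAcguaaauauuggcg
miR-15b-5p (chr3:160404607-160404628, plus strand): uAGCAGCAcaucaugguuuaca
miR-19b-3p (chr13:91351245-91351267, plus strand and chrX:134169683-134169705, minus strand): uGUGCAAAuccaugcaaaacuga
miR-19a-3p (chr13:91350939-91350961, plus strand): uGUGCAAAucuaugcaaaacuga
miR-103a-3p (chr5:168560904-168560926, minus strand and chr20:3917541-3917563, plus strand): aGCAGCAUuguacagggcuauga
miR-107 (chr10:89592756-89592778, minus strand): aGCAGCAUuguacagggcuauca
miR-221-3p (chrX:45746180-45746202, minus strand): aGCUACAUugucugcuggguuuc
miR-222-3p (chrX:45747036-45747056, minus strand): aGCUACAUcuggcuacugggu
The third set holds the GC-rich miRNAs among the 25 highest, none of which shares its seed with another of the 25.
miR-3178 (chr16:2531979-2531995, minus strand): gGGGCGCGgccggaucg
miR-638 (chr19:10718419-10718443, plus strand): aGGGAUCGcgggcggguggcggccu
miR-1915-3p (chr10:21496576-21496595, minus strand): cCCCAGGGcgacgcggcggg
miR-3196 (chr20:63238788-63238805, plus strand): cGGGGCGGcaggggccuc
miR-2861 (chr9:127785971-127785989, plus strand): gGGGCCUGgcggugggcgg
miR-1469 (chr15:96333261-96333282, plus strand): cUCGGCGCggggcgcgggcucc
miR-1908-5p (chr11:61815209-61815229, minus strand): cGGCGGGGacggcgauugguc
miR-762 (chr16:30893951-30893972, plus strand): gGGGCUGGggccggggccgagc

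Plant probe sets (ids of Arabidopsis, rice, poplar, grapevine and maize) gave the background, since human cells have no such miRNAs. A probe set was counted as above background where its mean over the 2 arrays exceeded the 95th percentile of the 1414 plant probe sets, a floor of 1.41 on the authors' normalised log2 scale. Of these plant probe sets 71 (5.02%) lie above the floor by its making, 15 lie above the 99th percentile of 5.65, and the highest, osa-miR2096-3p, read 8.30 and 8.74 on the 2 arrays. The next highest were osa-miR1858a (mean 8.38), osa-miR1858b (8.01), osa-miR2097-5p (7.90) and osa-miR1846b-5p (6.95), all of rice. Rice and Arabidopsis held 38 of 496 and 17 of 224 of their probe sets above the floor, against 7 of 319 for maize.

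Among 1100 human mature miRNA probe sets, 334 (30.4%) had a mean above the floor, 287 of them on both arrays against each array's own floor. A stricter floor at the 99th percentile left 121 (11%), and 42 lay above every plant probe set. In limma's two-sided moderated one-sample test of the level against the floor, 247 (22.5%) were higher at an adjusted p under 0.05, with 255 at an unadjusted p under 0.05, and against the 99th percentile 102 (9.27%) were. The lowest level that passed was 1.86, and the highest that did not was 2.71, for miR-1274b, which read 1.91 and 3.52. The median of the detected miRNAs was 4.32, and 24 of them had a mean over 10.

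**Figure D1:**
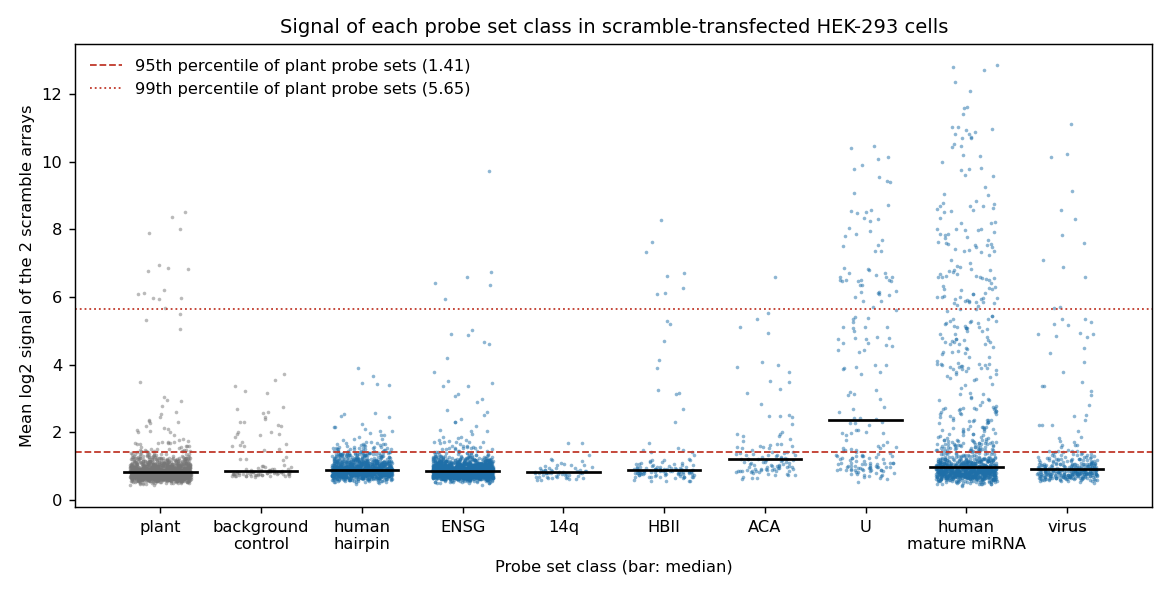
Mean log2 signal of the 2 scramble arrays for each probe set (points, spread sideways at random) by probe set class, with the class median as a bar and the plant percentiles as red lines. Human mature miRNAs and the snoRNAs named U reach 12.87 and 10.46, while human hairpins stay at or below 3.91, under the highest plant probe set at 8.52.

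The 25 highest miRNAs were led by miR-17-5p, which read 12.87 on array 1 and 12.86 on array 2. It belongs to the miR-17-92 cluster, known as an oncogenic cluster that promotes proliferation. miR-20a-5p from the same cluster read 12.83 and 12.81, and miR-106a-5p from the X chromosome relative read 12.75 and 12.70. Both arrays put these 3 in the same order, yet only the step below miR-106a-5p, to miR-92a-3p (12.41 and 12.33), exceeded the pooled replicate SD of 0.35 over all detected miRNAs. The 3 leaders share their seed and differ by few bases, as their sequences above show, so signal from one may include hybridisation by another, which was not tested. Below miR-92a-3p stood miR-1826 (11.94 and 12.24), an entry whose name is not in the authors' tables, and the step from it to miR-3178 (11.59 and 11.68) was the second over the pooled SD. miR-16-5p, known as a brake on cyclins and BCL2, read 11.60 and 11.59, and miR-18a-5p read 11.48 and 11.36.

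From miR-19b-3p (10.92 and 11.16) and miR-103a-3p (11.16 and 10.91) downwards, no step between neighbours exceeded the pooled SD of 0.35. By this rule, neighbours there were not told apart. In 25 places, 3 steps exceeded it in all, the third being that from miR-18a-5p to miR-19b-3p. For levels above 9 alone the pooled SD was 0.16. In this lower stretch, the steps below miR-2861 (0.17), miR-1469 (0.22), miR-20b-5p (0.17) and miR-762 (0.20) exceeded that value. Both arrays gave the same order at those steps. The paired miRNAs miR-221-3p (10.87 and 10.77) and miR-222-3p (10.70 and 10.75), repressors of the cell cycle inhibitor p27, stood side by side, as did miR-93-5p (10.84 and 10.81) with them. Lower in the list came miR-106b-5p (10.57 and 10.49), miR-107 (10.51 and 10.40), miR-20b-5p (10.23 and 10.12) and miR-191-5p (9.91 and 9.71). Probe sets also differ in how well their probes bind, so the order of signals is not an order of molecules per cell.

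**Figure D2:**
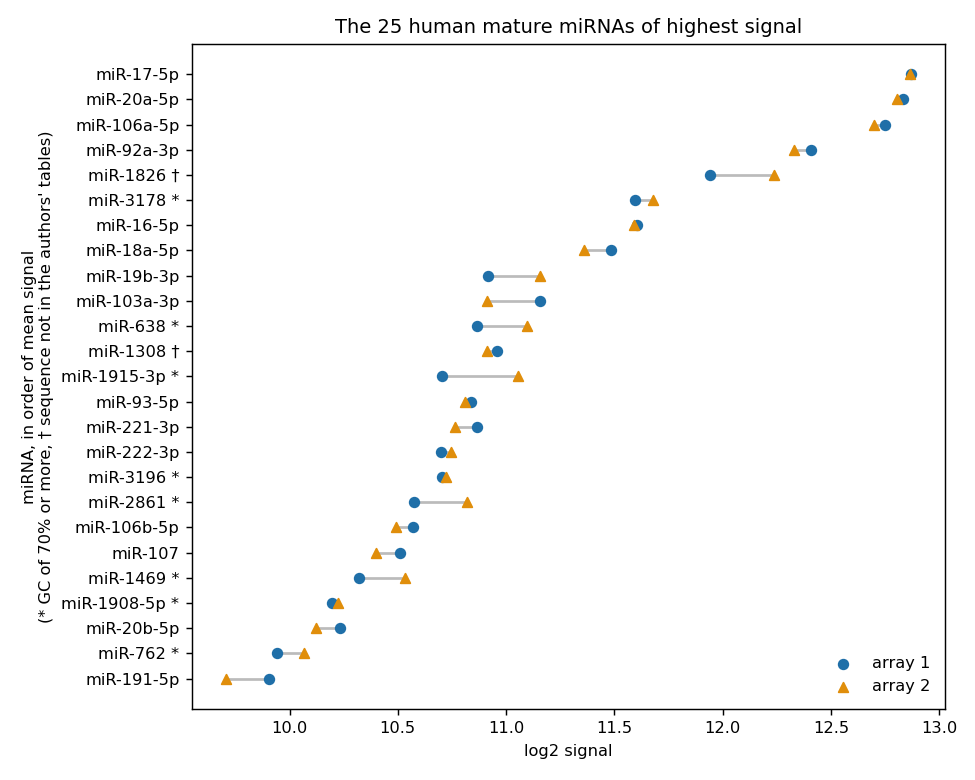
log2 signal of the 25 human mature miRNAs of highest mean on array 1 (circles) and array 2 (triangles), joined by a grey line, in order of the mean. The leaders miR-17-5p, miR-20a-5p and miR-106a-5p lie between 12.70 and 12.87, and from miR-19b-3p at 11.04 down no step to the next miRNA exceeds the pooled SD of 0.35.

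The array repeats many miRNAs as probe sets named for other vertebrates. Of the top 25, 16 had at least 3 such namesakes, 174 in all, and the median over namesakes lay a median of 0.060 from the human probe set. For miR-106b-5p, 14 namesakes read between 10.43 and 10.55 against 10.53 for the human one. Among these 16 the median over namesakes lay farthest off for miR-762, with 4 namesakes, at 1.25 below the human value. With 1 namesake each, miR-1908-5p (10.21 against 8.35) and miR-2861 (10.70 against 12.48) lay farther off still, and 7 of the 8 GC-rich leaders had fewer than 3 namesakes. Single namesakes could lie far lower, down to 5.49 for miR-17-5p and 5.51 for miR-16-5p. This comparison was chosen after the values were seen, and the sequences of the namesakes were not examined.

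The 2 arrays gave like profiles. Across the 334 detected miRNAs, which share the same 2 arrays and scale, Pearson's r was 0.986 and Spearman's rho 0.957, as descriptions. The median absolute difference between arrays was 0.26, and the pooled SD was 0.45 for levels up to 3, 0.40 from 3 to 5, 0.20 from 5 to 7, 0.18 from 7 to 9 and 0.16 above 9. The pooled SD was thus lower at higher levels, with exceptions among names not in the authors' tables, miR-1979 (7.98 and 9.31) and miR-1975 (9.28 and 10.26), named after their values were seen. Array 1 was higher for 196 and array 2 for 136 of the detected miRNAs, and 43 exceeded the array's own floor on only 1 array. The largest gaps were those of miR-3189-3p (3.08 and 1.03), miR-1244 (1.76 and 3.61), miR-941 (3.47 and 1.61), miR-1274b, miR-3153 (3.12 and 1.58) and miR-193b-5p (2.63 and 1.10). Those 6 had means under 3, whereas miR-574-3p (5.20 and 3.84) and miR-1226-5p (4.32 and 2.97) differed by over 1 at a higher level.

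Members just inside and outside the floor were indistinguishable. On the upper side lay miR-340-5p (mean 1.42, with 1.64 and 1.19 on the arrays), miR-29b-2-5p (1.42), miR-675-5p (1.42), miR-1914-3p (1.43) and miR-4292 (1.43). Just below lay miR-1224-3p (1.40), miR-20b-3p (1.39), miR-3184-5p (1.38), miR-4274 (1.37) and miR-2276-3p (1.37). Their 2 arrays fall on both sides of the floor for miR-340-5p and for miR-1224-3p (1.56 and 1.24) alike.

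GC content moved with the share above the floor. Of 75 human miRNAs with at least 70% GC, 54 (72%) lay above it, against 270 of 1005 (26.9%) below that GC content. Between 80% and 100% GC it was 19 of 21. The bound of 70% was set after the values were seen. The array's background controls, probe sets of stated GC content, rose with GC content too. Of 95 controls 28 (29.5%) exceeded the plant floor, every one of them with at least 76% GC, up to 3.72. Against controls of its own GC content, 41 of the 75 GC-rich miRNAs stayed above. The 13 that were above the plant floor but not above their controls had means from 1.43 to 2.16, among them miR-572 (2.54 and 1.78), miR-940 (2.26 and 2.03) and miR-663b (1.70 and 1.23). The GC-rich miRNAs of the third set above read far over the highest control: miR-3178 at 88.2% GC, miR-638 at 80% GC (10.87 and 11.09), miR-1915-3p at 90% GC (10.71 and 11.06), miR-3196 at 88.9% GC (10.71 and 10.72) and miR-2861 at 89.5% GC (10.57 and 10.82). With miR-1469 (10.32 and 10.53), miR-1908-5p (10.20 and 10.22) and miR-762 (9.94 and 10.06) they make 8 of the 23 top miRNAs with a known sequence. The part of GC content in these levels was not tested. Among detected miRNAs alone, level and GC content had a Spearman rho of -0.0020 over 324 miRNAs. Their median level was not flat with GC content, at 1.95 under 40% GC, 5.74 from 40% to 50%, 4.66 from 50% to 60%, 3.73 from 60% to 70%, 3.72 from 70% to 80% and 7.47 from 80% up.

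**Figure D3:**
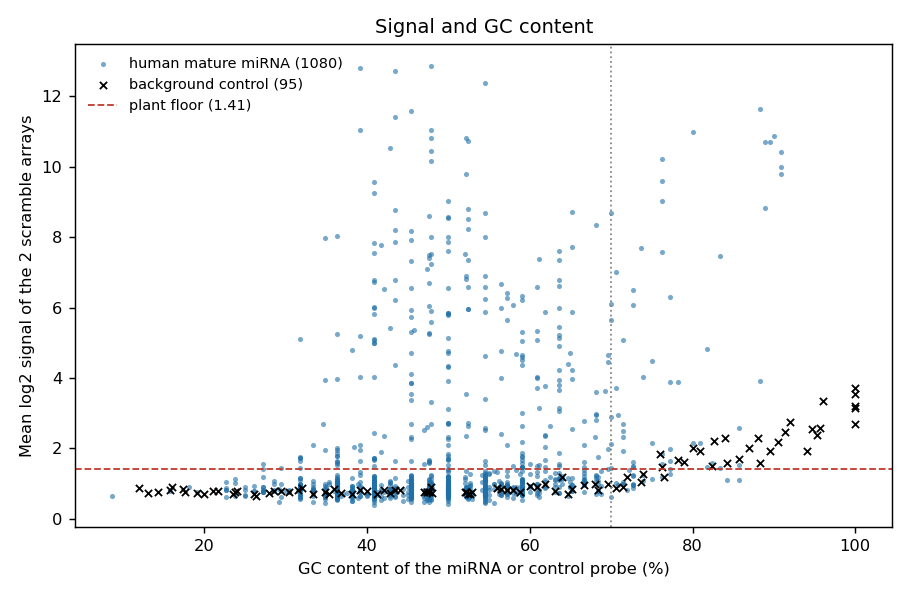
Mean log2 signal of the 2 arrays against GC content in percent, for 1080 human mature miRNAs (blue) and 95 background controls (crosses), with the plant floor as a dashed line and 70% GC as a dotted one. Controls lie near 1 up to about 70% GC and rise to 3.72, while 54 of 75 miRNAs at or beyond 70% GC exceed the floor.

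Seeds were shared by several of the abundant miRNAs. The 324 detected miRNAs with a sequence carried 266 different seeds of 885 on the array, and 7 seeds had at least 3 members above the 99th percentile of the plants. Only these 7 are described, so how many of their members passed limma's test follows largely from that choice. Among all 1100 human mature miRNAs, 22.5% passed. The AAAGUGC group led them, with 6 of 8 members between 10.18 and 12.87. Its other members, miR-526b-3p (0.84) and miR-519d-3p (0.77) of the primate placental cluster on chromosome 19, were below the floor. In the AUUGCAC group miR-92a-3p stood at 12.37, miR-25-3p read 9.08 and 8.99, and miR-92b-3p read 6.01 and 5.94, while miR-32-5p (1.33 and 2.15) did not pass the test (adjusted p = 0.297 in limma), and miR-363-3p (0.98 and 0.67) and miR-367-3p (0.52 and 0.66) lay below the floor.

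In the AGCAGCA group 5 of 6 members passed, and levels ran from miR-16-5p over miR-15b-5p (9.31 and 9.22), miR-15a-5p (7.81 and 7.88), miR-195-5p (5.31 and 5.56) and miR-497-5p (2.32 and 3.14) to miR-424-5p (0.97 and 1.05), which lay below the floor. In the let-7 family (seed GAGGUAG), known to repress growth genes in differentiated cells, 8 of 9 members passed. let-7a-5p (8.07 and 7.97) and let-7e-5p (7.64 and 7.48) led it, let-7c-5p (6.28 and 5.74) and let-7d-5p (6.11 and 5.89) followed, and miR-98-5p (0.91 and 0.87) was at background. Its other detected members were let-7g-5p (5.26), let-7f-5p (5.10), let-7i-5p (5.08) and let-7b-5p (3.55). Members of this family differ by few bases, so cross-hybridisation among them was not tested.

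All 5 members of the GUAAACA group passed, miR-30c-5p (8.18 and 8.20), miR-30b-5p (6.95 and 6.52), miR-30d-5p (5.80 and 5.84), miR-30a-5p (5.73 and 5.75) and miR-30e-5p (4.16 and 3.89). All 4 of the AAAGCUG group did as well, miR-320a (8.82 and 8.55), miR-320b (8.71 and 8.42), miR-320c (8.59 and 8.51) and miR-320d (7.18 and 7.02). miR-320a is known to be made without Drosha. For CUGGACU, miR-378a-3p (8.65 and 8.39), miR-378c (7.40 and 7.67) and miR-422a (6.70 and 7.08) passed, whereas miR-378b (1.23 and 1.34) lay below the floor.

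Both arms were on the array for 268 precursors. In 112 of these neither arm exceeded the floor, in 96 only 1 arm did (64 the 5p and 32 the 3p arm), and in 60 both did. Of the 156 with at least 1 arm above, the arms differed by more than either arm's difference between arrays in 145, the 5p arm being higher in 96 and the 3p arm in 49. As the arms have different probes, no test was made and no ratio of molecules is given. A precursor with a relative elsewhere in the genome shares its mature arm, as MIR16-1 and MIR16-2 do, so these counts hold some arms more than once.

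The 5p arm was far the higher for miR-106a (12.75 and 12.70 against 0.55 and 1.04 for its 3p arm), a gap of at least 11.32 when counted from the floor. miR-20a had means of 12.82 for 5p and 1.54 for 3p, a gap of at least 11.28, as the 3p arm did not pass limma's test against the floor (adjusted p = 0.401). For miR-16-1 and miR-16-2, whose 5p arm is the same, the gap was at least 10.19 for the first. For miR-16-2, whose 3p arm passed the test, it was 9.73. Next came miR-20b (at least 8.77), miR-191 (at least 8.40) and miR-26a-1 with miR-26a-2, which share miR-26a-5p (9.66 and 9.51) and gave at least 8.17 each. miR-15b, the next in order, had a gap of at least 7.86.

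In the other direction miR-92a-2 led, its 3p arm miR-92a-3p standing at least 10.96 above a 5p arm at 0.71 on both arrays. Its relative miR-92a-1, which gives the same 3p arm, had a 5p arm of its own at 7.10 and 6.55, so the arms were 5.54 apart. miR-19b-2 and miR-103a-2 had gaps of at least 9.63 each, and miR-1915 of at least 9.47. With both arms above the floor, miR-221 (8.80), miR-19b-1 (8.33) and miR-222 (8.04) had the largest gaps towards 3p, that of miR-221 being a lower bound because miR-221-5p did not pass limma's test (adjusted p = 0.0587). miR-23b (at least 7.19) came next.

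Some precursors had arms at like levels. In the 60 with both arms above the floor the median absolute gap was 3.80, 54 exceeded the difference between arrays and 6 did not. The closest arms were those of miR-500a (5p 6.12 and 5.71, 3p 5.88 and 5.85), miR-92b (5p 6.03 and 6.12, 3p 6.01 and 5.94), miR-551b (5p 2.66 and 2.41, 3p 3.30 and 1.97), miR-675 (5p 1.62 and 1.22, 3p 1.83 and 1.30) and miR-628 (5p 1.74 and 2.15, 3p 1.66 and 1.71). Only the gap of miR-92b was over the larger difference between its arrays. For 5p minus 3p it was 0.10, and -0.30 in the authors' second normalisation run, so its direction depends on the run. The arms of miR-551b, miR-675 and miR-628 had means under 3, nearer the floor than those of miR-500a and miR-92b. For miR-675-5p the level did not pass limma's test against the floor (adjusted p = 0.941). In miR-149 the 3p arm (9.52 and 9.69, 76.2% GC) exceeded the 5p arm (5.39 and 5.30, 60.9% GC) by 4.26.

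Precursor hairpins show how the arms lie, with the mature arms in capitals. MIR20A and MIR92A1 come from one cluster, with the higher signal on the 5p arm of miR-20a and on miR-92a-3p, which MIR92A2 also encodes. MIR149 holds a GC-rich 3p arm.
MIR20A (chr13:91351065-91351135, plus strand): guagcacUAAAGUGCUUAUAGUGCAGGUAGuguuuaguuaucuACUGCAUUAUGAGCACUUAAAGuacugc
MIR92A1 (chr13:91351314-91351391, plus strand): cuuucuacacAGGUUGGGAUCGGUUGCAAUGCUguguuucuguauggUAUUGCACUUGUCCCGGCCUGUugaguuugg
MIR149 (chr2:240456001-240456089, plus strand): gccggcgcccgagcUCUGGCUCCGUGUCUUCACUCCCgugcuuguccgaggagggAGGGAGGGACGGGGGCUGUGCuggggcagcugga

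**Figure D4:**
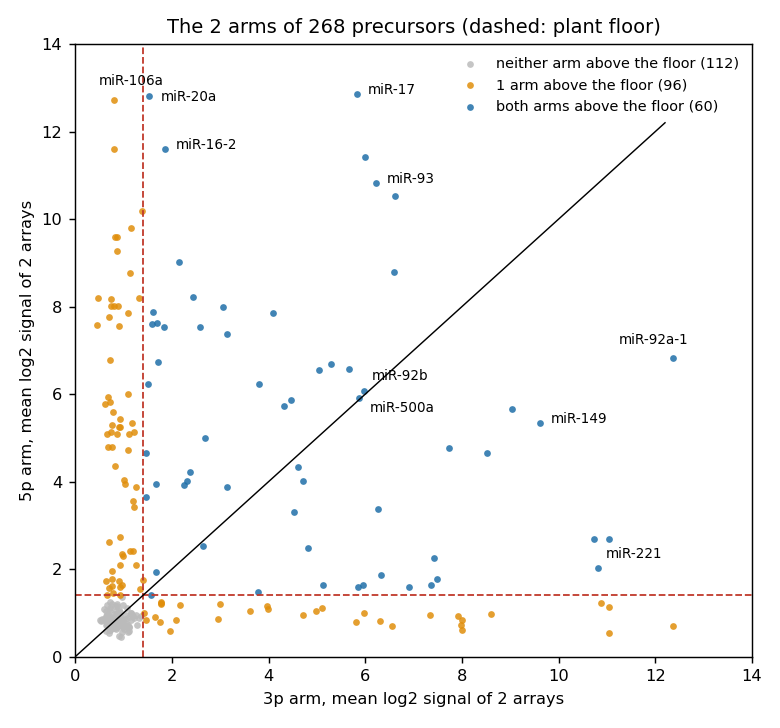
Mean log2 signal of the 5p arm against that of the 3p arm for 268 precursors, with the plant floor as dashed lines and equal signal as a diagonal. The 96 precursors with 1 arm above the floor lie along the axes, and the 60 with both arms above it are mostly far from the diagonal, with miR-500a and miR-92b on it.

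Mature miRNAs were placed in clusters by chaining RefSeq precursors on 1 chromosome and strand whose neighbours lie within 10 kb. Of the mature miRNAs' 1076 distinct names 962 matched a RefSeq entry. There were 64 clusters, 16 with at least 3 members above the floor and 18 with none, and 105 of the 324 detected miRNAs with a name in the tables belong to one. Of the 367 mature miRNAs measured in clusters those 105 are 28.6%, near the 30.4% of all mature probe sets, against which the counts by cluster stand. The counts use the floor alone. In the 16 clusters, some arms above it did not pass limma's test (adjusted p from 0.0587 to 0.464). They are miR-20a-3p, miR-502-5p, miR-221-5p, miR-27b-5p, miR-23a-5p, miR-27a-5p, miR-125a-3p, miR-181a-3p and miR-450b-5p. The miR-17-92 cluster (chr13:91350605-91351391, plus strand), within the bounds of the noncoding host gene MIR17HG, had 11 of its 12 mature miRNAs above the floor. Its main arms ran from miR-17-5p, miR-20a-5p, miR-92a-3p, miR-18a-5p and miR-19b-3p down to miR-19a-3p (8.005 and 7.955). Of its passenger arms, miR-92a-1-5p, miR-18a-3p (5.78 and 6.21) and miR-17-3p (5.75 and 5.92) were well above the floor, miR-19b-1-5p (2.67 and 2.74) and miR-20a-3p (1.63 and 1.45) were near it, and miR-19a-5p (0.82 and 0.61) was below. miR-19a-3p and miR-19b-3p, which share the seed GUGCAAA, had means of 7.98 and 11.04 although both lie in 1 cluster, and miR-19b-3p also has a copy on the X chromosome.

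The miR-106b-25 cluster (chr7:100093560-100094074, minus strand), within the bounds of the replication gene MCM7, had all 6 mature miRNAs above the floor. Main arms were miR-93-5p, miR-106b-5p and miR-25-3p, and the passenger arms miR-106b-3p (6.61 and 6.63), miR-93-3p (6.32 and 6.12) and miR-25-5p (5.84 and 5.47) lay near the 99th percentile of the plants or over it. In the miR-106a-363 cluster (chrX:134169378-134170278, minus strand) 5 of 12 were above, a share not far from that of all miRNAs, namely miR-106a-5p, miR-20b-5p, miR-18b-5p (8.84 and 8.68) and the shared miR-92a-3p and miR-19b-3p. Every other arm there, including both of miR-363, was below the floor. The 2 shared miRNAs cannot be assigned to a cluster.

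The X chromosome cluster from MIR532 to MIR502 (chrX:50003148-50014683, plus strand), within the bounds of the chloride transporter gene CLCN5, had 11 of 14 above. The highest 6 had means from 5.30 to 6.24, namely miR-532-5p (6.26 and 6.22), miR-500a-5p, miR-500a-3p, miR-502-3p (5.96 and 5.75), miR-362-5p (5.48 and 5.22) and miR-660-5p (5.36 and 5.25). Lower came miR-501-3p (4.52 and 4.72), miR-501-5p (4.19 and 4.48) and miR-532-3p (3.73 and 3.89). Faintest were miR-188-5p (2.14 and 2.55) and miR-502-5p (1.44 and 1.77). In the MIR221 to MIR222 cluster (chrX:45746157-45747124, minus strand) all 4 arms were above, with passenger arms miR-222-5p (2.58 and 2.78) and miR-221-5p (1.75 and 2.28).

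Of the miR-23-27-24 clusters, that on chromosome 9 had miR-23b-3p (8.68 and 8.51), miR-27b-3p (7.40 and 7.44) and miR-27b-5p (1.82 and 2.71) above the floor, and that on chromosome 19 had miR-23a-3p (7.53 and 7.44), miR-27a-3p (6.08 and 5.82), miR-23a-5p (1.78 and 1.78) and miR-27a-5p (1.39 and 1.91). Both give miR-24-3p (7.97 and 8.05). The chromosome 19 cluster of miR-99b, let-7e and miR-125a had its 3 main arms at like levels: miR-125a-5p (7.60 and 7.61), let-7e-5p and miR-99b-5p (7.45 and 7.28), with miR-99b-3p (3.61 and 2.67) and miR-125a-3p (1.89 and 1.28) beside them. In the sensory organ cluster MIR182 to MIR183 levels were spread widely, from miR-182-5p (7.74 and 7.80) over miR-183-5p (4.95 and 5.05) and miR-183-3p (2.85 and 2.52) to miR-96-5p (1.80 and 2.10).

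MIR15B to MIR16-2 had miR-16-5p, miR-15b-5p and miR-16-2-3p (1.88 and 1.85) above the floor, and MIR425 to MIR191 had miR-191-5p, miR-425-5p (7.996 on both) and miR-425-3p (2.87 and 3.23). MIR30E to MIR30C1 held miR-30c-5p, miR-30e-5p and miR-30e-3p (2.47 and 2.17). The let-7 cluster on chromosome 9 held let-7a-5p, let-7d-5p and let-7f-5p, with their 3p arms all below the floor. The 2 miR-181 clusters share miR-181a-5p (7.63 and 7.43) and miR-181b-5p (7.28 and 7.21) and differ in their own 3p arms, miR-181a-2-3p (2.56 and 2.61) and miR-181a-3p (1.60 and 2.07). From MIR450B to MIR424, miR-503-5p (6.70 and 6.65) and miR-424-3p (6.05 and 5.89) were high and miR-450b-5p (1.45 and 1.68) near the floor, while miR-424-5p, the arm usually named as the main one, was not above it.

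Large clusters known for placenta and for imprinting were at background. From MIR512-1 to MIR519A2 on chromosome 19, 1 of 53 measured miRNAs (miR-1323, mean 1.73) was above the floor. From MIR379 to MIR656 in the imprinted region of chromosome 14, 2 of 53 were, miR-494-3p (mean 3.85) and miR-323a-5p (1.71 and 1.54). Among the 18 clusters with none above were those of miR-302 with miR-367, miR-371 to miR-373, miR-143 with miR-145, and miR-34b with miR-34c.

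**Figure D5:**
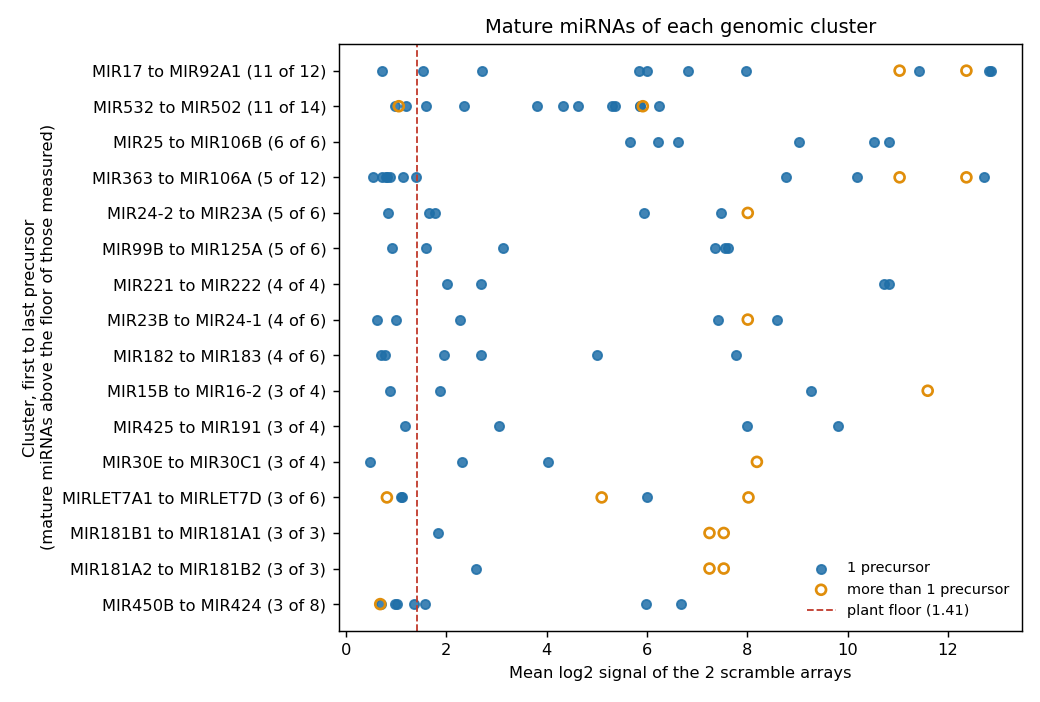
Mean log2 signal of every measured mature miRNA of the 16 clusters with at least 3 above the plant floor (dashed line), with miRNAs of more than 1 precursor as open circles. In the MIR17 to MIR92A1 cluster 11 of 12 lie above the floor, reaching 12.87, whereas the 14 of MIR532 to MIR502 reach at most 6.24.

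The label of an embryonic kidney line was set against lists of marker miRNAs, whose counts stand beside the 30.4% of all human mature miRNAs above the floor and the 22.5% that passed the test. Of 11 miRNAs listed for proliferation and the embryonic kidney line, all were above the floor and passed the test, among them the HOX cluster miRNAs miR-10a-5p (7.86 and 7.89), miR-196a-5p (6.86 and 6.71), miR-196b-5p (6.67 and 6.44), miR-10b-5p (6.15 and 6.30) and miR-615-3p (5.37 and 4.89). The lists were chosen with earlier results of these data known. This one holds miR-17-5p, miR-20a-5p, miR-92a-3p, miR-93-5p and miR-106b-5p, all among the 25 highest, so its count does not test the label. Of 5 renal tubule markers 3 passed, miR-194-5p (5.82 and 6.05), miR-30a-5p and miR-192-5p (5.53 and 5.05), and miR-215-5p (0.81 and 0.77) and miR-204-5p (1.17 and 1.25) were at background. Neuronal miRNAs were divided: miR-132-3p (6.62 and 6.51), miR-128-3p (5.88 and 6.20), miR-218-5p (5.09 and 4.49) and miR-7-5p (4.10 and 3.81) passed, and the defining miR-124-3p (1.27 and 1.30), miR-9-5p (0.76 and 0.91) and miR-129-5p (0.77 and 1.12) were below the floor.

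Lists for other tissues gave the following counts, to be read against the same shares. For epithelial miRNAs 1 of 7 exceeded the floor, miR-200c-3p (1.68 and 1.61, adjusted p = 0.157 in limma), with miR-200a-3p, miR-200b-3p, miR-141-3p, miR-429, miR-205-5p and miR-203a-3p between 0.70 and 1.26. For blood it was 1 of 7, miR-451a (1.81 and 1.48, adjusted p = 0.225 in limma), while miR-142-3p, miR-142-5p, miR-223-3p, miR-150-5p, miR-155-5p and miR-144-3p lay between 0.73 and 1.24. Mesenchymal and endothelial miRNAs gave 3 of 7, namely the widespread miR-221-3p and miR-222-3p and the endothelial miR-126-3p (4.92 and 4.51), with miR-143-3p, miR-145-5p, miR-199a-3p and miR-214-3p from 0.66 to 1.09. None of 6 muscle, 2 liver or 8 pluripotency miRNAs was above, and the highest of these 16 was miR-208a-3p at 1.14. Summed over each list after taking signals out of the log, array 1 and array 2 gave log2 totals of 14.59 and 14.55 for the embryonic kidney line list, 7.32 and 7.30 for renal tubule, 7.74 and 7.70 for neurons, 11.80 and 11.77 for mesenchyme and endothelium, 3.82 and 3.90 for epithelium, 3.92 and 3.89 for blood, 3.38 and 3.42 for muscle, 1.78 and 1.93 for liver, and 3.80 and 3.72 for pluripotency. The lists differ in length, so their totals cannot be compared with each other.

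Hairpin probe sets did not stand out from the plants. Of 1121 human hairpin probe sets 61 (5.44%) lay above the floor, a share close to the 5.02% of the plants, and 0 lay above the 99th percentile. The highest were mir-423 (3.95 and 3.87), mir-1224 (3.53 and 3.76), mir-3180-1 (3.44 and 3.48), mir-935 (3.12 and 3.72), mir-500 (3.32 and 3.46), mir-550-2 (2.62 and 2.49), mir-941-2 (2.45 and 2.59), mir-3185 (2.26 and 2.69), mir-1909 (2.73 and 2.18), mir-3180-3 (2.42 and 2.05), mir-550-1 (1.81 and 2.51) and mir-3180-2 (2.37 and 1.94). These were picked by the highest mean of the same 2 arrays, and each was over the floor on each. Of all 61, 34 were above each array's own floor on both. A hairpin probe can also bind an RNA that holds the same stretch, such as the mature arm, and 19 of the 61 are sets whose suffix marks probes shared with other sequences.

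Of 819 precursors measured both as a hairpin and as a mature miRNA, 44 were above the floor in both, 225 only as a mature miRNA, 11 only as a hairpin and 539 in neither. The top 25 showed the gap plainly: for the 20 of them with hairpin probe sets, 34 in all, the highest hairpin value was 1.97, for mir-3178, and 4 of the 20 had any hairpin probe set above the floor. The hairpins of miR-17 and miR-20a read 1.16 and 1.15, near 1, against mature levels of 12.87 and 12.82. Of 55 matched precursors with the hairpin above the floor, 15 had a hairpin value over that of the highest arm. The highest of these hairpins, mir-1224, stood above its arms miR-1224-5p (mean 1.76) and miR-1224-3p (1.40), while mir-423 lay below both miR-423-3p (7.73) and miR-423-5p (4.76). Their sequences follow, the highest 2 hairpins by signal, with the mature arms in capitals.
MIR423 (chr17:30117079-30117172, plus strand): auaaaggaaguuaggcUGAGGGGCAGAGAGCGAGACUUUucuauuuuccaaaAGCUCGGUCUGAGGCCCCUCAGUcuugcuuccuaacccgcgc
MIR1224 (chr3:184241405-184241489, plus strand): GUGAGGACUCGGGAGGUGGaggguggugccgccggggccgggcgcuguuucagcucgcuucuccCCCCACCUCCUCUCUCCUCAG

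snoRNAs formed the other abundant class. Of 538 snoRNA and scaRNA probe sets, for 398 names, 199 probe sets and 156 names lay above the floor. In the class named U, 118 of 190 probe sets (62.1%) did, 55 of them above the 99th percentile of the plants and 13 above every plant. This class was set by name alone and not divided by box type, so its share is not that of the C/D box kind. U43 (10.37 and 10.54), within the bounds of the ribosomal protein gene RPL3, and U95 (10.26 and 10.57), within RACK1, were the highest. By the higher probe set of each, U44 (10.03 and 10.11) and U78 (9.83 and 9.77) lie within GAS5. Also high were U29 (8.96 and 9.20), U41 (8.68 and 8.75) and U57 (8.52 and 8.63).

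Among the C/D box probe sets named HBII, 23 of 125 (18.4%) were above the floor. The highest of them were HBII-202 (8.37 and 8.18), HBII-55 (7.73 and 7.54), HBII-429 (7.04 and 7.61), HBII-180A (6.63 and 6.79), HBII-85-26 (5.99 and 7.27), HBII-85-6 (5.69 and 6.82) and HBII-142 (6.05 and 6.22). The small class mgh had 4 of 4 above (100%), led by mgh28S-2409 (7.56 and 7.94), and the class snR had 5 of 6 (83.3%), led by snR38C (8.70 and 8.61). For SNORD it was 4 of 9 (44.4%), led by SNORD119 (3.84 and 3.71), and for mgU 3 of 14 (21.4%), led by mgU6-77 (2.27 and 2.54). Differences between name classes were not tested. A further class of 1672 probe sets named by Ensembl gene ids, not annotated further here, had 66 (3.95%) above the floor.

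H/ACA box snoRNAs named ACA had 38 of 111 above the floor (34.2%), but only ACA44 (6.65 and 6.52) exceeded the 99th percentile of the plants. Below it came ACA7 (5.31 and 5.71), ACA7B (5.48 and 5.22), ACA3-2 (5.18 and 5.03), ACA18 (4.44 and 5.43), ACA48 (4.20 and 3.96), ACA15 (3.31 and 4.68) and ACA10 (3.47 and 4.07). Among SNORA it was 2 of 11 (18.2%), and among HBI 0 of 8 (0%), with the highest HBI at 1.07. Different probe sets of a snoRNA did not always concur: over 57 snoRNAs with several, the median range was 0.80 and in 24 it exceeded 1. The widest were those of HBII-85-26 (0.83 to 6.63), ACA44 (0.95 to 6.58), U14B (1.23 to 6.51) and U68 (0.83 to 5.87), so the level of these 4 rests on 1 probe set each or depends on the one chosen.

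Grouping snoRNAs by the gene within whose bounds they lie in RefSeq, strand not compared and a grouping chosen after the values were seen, showed wide ranges inside a host. Each snoRNA is counted by its highest probe set. The counts stand beside 156 of all 398 snoRNA names above the floor, and 64.0% of the names in class U. Within GAS5, 8 of 10 were above the floor, from U44 (10.07 by its higher probe set), U78, U75 (8.24), U74 (7.86), U76 (7.69) and U81 (6.49) to U80 (1.46), U79 (1.42), U47 (1.29) and U77 (1.05). Of these, U80 and U79 lay close to the floor of 1.41. Within SNHG1, 7 of 8 were above, U29, U25 (8.56), U28 (7.52), U30 (7.37), U26 (5.39), U27 (5.34) and U31 (4.57), and U22 (0.79) was not. All 3 within RPL13A were above, U34 (8.49), U33 (8.30) and U32A (6.08). In NOP56, 4 of 4 were, U57, U56 (8.04), HBII-55 and the H/ACA ACA51 (1.94). TAF1D, which holds H/ACA snoRNAs, had 4 of 6 above, the highest being ACA18. At the low end, RPL4 had 1 of 4 above and TBRG4 had 0 of 3.

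Few imprinted snoRNAs exceeded the floor. In SNHG14 on chromosome 15, 3 of 72 were above the floor. They are HBII-85-26, HBII-85-6 and a copy of HBII-52 at 1.42, and the medians were 0.85 for 35 HBII-85 and 0.85 for 46 HBII-52 probe sets. Both of these HBII-85 snoRNAs, 2 of 35 probe sets or 5.71%, also exceeded the 99th percentile of the plants and read higher on array 2. For HBII-52 it was 1 of 46. For the 14q class, 2 of 60 probe sets (3.33%) were above, both for 14qI-1, at 1.68.

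The array with the higher value varied with the class of probe set. Among the detected miRNAs with under 70% GC, 169 were higher on array 1 and 100 on array 2, with a median difference of 0.099. Among those with at least 70% GC it was 23 on array 1 and 31 on array 2, with a median difference of -0.045. Among U probe sets above the floor 85 of 118 were higher on array 2, with a median difference of -0.13 for array 1 minus array 2, among HBII 15 of 23 were (median -0.15), and among ACA 28 of 38 were (median -0.30). Virus probe sets above the floor were higher on array 2 in 35 of 55. Among plant probe sets above the floor it was 34 on array 1 and 37 on array 2. The cause of these shifts was not tested.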

How the data were processed

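Small RNA was measured on Affymetrix miRNA 2.0 arrays. Values are the authors' deposited normalised log2 signals per probe set; how background was corrected and probe sets were summarised and normalised was not stated, and limma is named without a version per the submitters' processing notes. The scramble columns of the series table equal those of the deposited human table (largest difference 0), which names 1080 of 1100 mature probe sets; 8 other per-sample columns were not used. Their second normalisation run served as an alternative.

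The floor was the 95th percentile of 1414 plant probe sets. limma 3.58.1 in R 4.3.3 tested level minus floor with a variance trend and Benjamini-Hochberg adjustment over 1100 probe sets, at 0.05, on 1 residual degree of freedom, and was tested on simulated data. Tables were made with Python 3.11.15 and pandas 2.3.3. Names, clusters and sequences came from RefSeq GRCh38.p14; 92 cluster members were placed because a RefSeq hairpin holds their deposited sequence. Only 2 arrays limit the precision.

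Named were the 25 highest miRNAs, the 5 nearest each side of the floor, the 8 least alike between arrays, the 8 largest arm gaps each way and 5 smallest, detected members of clusters and seed groups, 12 hairpins, the leading snoRNAs per class, 5 plant probe sets and all markers. Members and lists were chosen with earlier results of these data known. Alternatives changed the floor, the arrays used, the spread, shared-probe sets, the run and the cluster distance.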

Additional observations from a re-analysis of the deposited data

Results flagged for a closer look

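Probe sets named for viruses enter no comparison above, yet some read high in the scramble cells. The highest, hsv2-miR-H10, had a mean of 11.11 (11.09 and 11.14), above the highest plant probe set at 8.52. Of 355 virus probe sets 55 (15.5%) exceeded the plant floor and 5 exceeded every plant, the others being hsv1-miR-H17 (10.24), rrv-miR-rR1-4 (10.13), hsv2-miR-H25 (9.13) and hvt-miR-H3-5p (8.58). What these probe sets bound was not tested.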

How the results depend on the processing

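Of 38 alternatives over 9 results, 27 stayed within 1.5 times of the reported value, 11 moved and 0 reversed. With the 99th percentile as floor, limma's 247 miRNAs became 102, the 334 above the floor 121, hairpins 61 became 0, U 118 became 55, HBII 23 became 8 and ACA 38 became 1. The 334 became 42 with the highest plant as floor and, chosen after seeing the data, 143 with the 95th percentile of the virus probe sets (5.01). Background controls of the same GC content could be applied only to the 1080 miRNAs with a sequence, 324 of them above the plant floor. These 324 became 597 with the controls as floor and, chosen after seeing the data, 311 with controls and plants together. Without probe sets whose probes are shared, the U count was 66 and the ACA count 18. Fewer probe sets are then counted, and the shares among those left are not given here. Using 1 array alone gave 319 to 320 miRNAs, 61 to 64 hairpins, 115 to 116 U, 20 to 23 HBII, 29 to 42 ACA, 93 precursors with the higher 5p arm, and 24 to 25 of the top 25. limma counted 251 with the spread over 10 arrays, some from another normalisation run, and 251 without a trend; clusters rose from 16 to 19 at 50 kb. Levels near the floor are limited by signal over background. No paired analysis was possible because 1 group was measured against a floor and no groups were compared.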

Other observations

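Of the 20 mature probe sets whose names are not in the authors' tables, 10 were above the floor. Beside miR-1826 and miR-1308 these included miR-1975 (9.28 and 10.26), miR-1979 (7.98 and 9.31) and miR-1280 (6.67 and 6.59). What these probe sets detect was not tested.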
